A study of Mus musculus with 16 samples.

Results

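R-loops were examined at 10 genes that build and remodel the extracellular matrix of fibroblasts, in mouse NIH/3T3 cells: the collagen genes Col1a1, Col1a2, Col3a1, Col5a1 and Col5a2, the glycoprotein genes Fn1, Sparc and Thbs1, the crosslinking enzyme gene Lox and the protease inhibitor gene Timp1. These 10 genes, of 21938 protein-coding genes in the annotation (GENCODE M21, build GRCm38), were chosen by name for their matrix products, with earlier results of these data known. Every peak that overlapped a gene body or the 1000 bp on either side of it was taken. These stretches, called windows here, held 71 of the 77297 peaks in 8 peak lists. The lists came from DNA:RNA hybrid immunoprecipitation sequencing (DRIP-seq) with the S9.6 antibody, which binds DNA:RNA hybrids. The lists fall into 4 groups of 2 replicates each: wild-type cells (WT) and cells in which both copies of Xpo4, which encodes the nuclear export receptor exportin 4, were disrupted with CRISPR-Cas9 (KO), each with the digested genomic DNA incubated with RNase R (RNase R+) or with its buffer alone (RNase R-) before the pull-down. RNase R digests linear RNA from its end and leaves circles intact, and peaks that remain after it are called ciR-loops (R-loops with circular RNA) by the study. All cells were NIH/3T3, an established embryonic fibroblast line, all DNA was cut with the same mixture of 4 restriction enzymes, and E. coli DNA was added to every sample. KO is a single edited line, so genotype and line cannot be told apart, and the labels do not say that the replicates are separate cultures, so their spread may be technical.

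An R-loop is a stretch of RNA paired with 1 strand of the DNA double helix while the other strand is displaced. R-loops commonly form behind RNA polymerase on transcribed genes, and a displaced strand rich in G, with short runs of G, is known to favour them. Fibroblasts secrete fibrillar collagens, fibronectin and matricellular proteins in large amounts, so the genes of these proteins are typically among their most transcribed. The lists hold no expression values, so neither the level of these transcripts nor the fibroblast identity of the cells was checked here.

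In KO cells the matrix genes carried R-loop peaks well beyond their share of the genome, and in WT cells no peak was called in their windows. At the 10 genes, 25 and 31 peaks were called in the KO RNase R- libraries (28 ± 4.24, SD, n = 2), 10 and 5 in the KO RNase R+ libraries (7.5 ± 3.54, SD, n = 2), and 0 in each of the 4 WT libraries. The windows span 523.8 kb, and at the peak density of each list over the nuclear chromosomes 5.05 and 6.18 peaks would be expected from length in the KO RNase R- lists. The ratio of observed to expected peaks was thus 4.95 and 5.02 in the KO RNase R- lists, against 1.22 and 1.21 for the windows of all protein-coding genes. In the KO RNase R+ lists the ratio was 8.20 and 4.36, against 1.28 and 1.17 for all protein-coding genes. Peaks were present at 9 and 10 of the 10 genes in the KO RNase R- lists, whereas 32.7% and 37.2% of all protein-coding genes had a peak there. The median window was 34.7 kb for the 10 genes and 19.4 kb for all protein-coding genes. These shares of genes are not matched for length, so part of the contrast may be gene length.

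**Figure D1:**
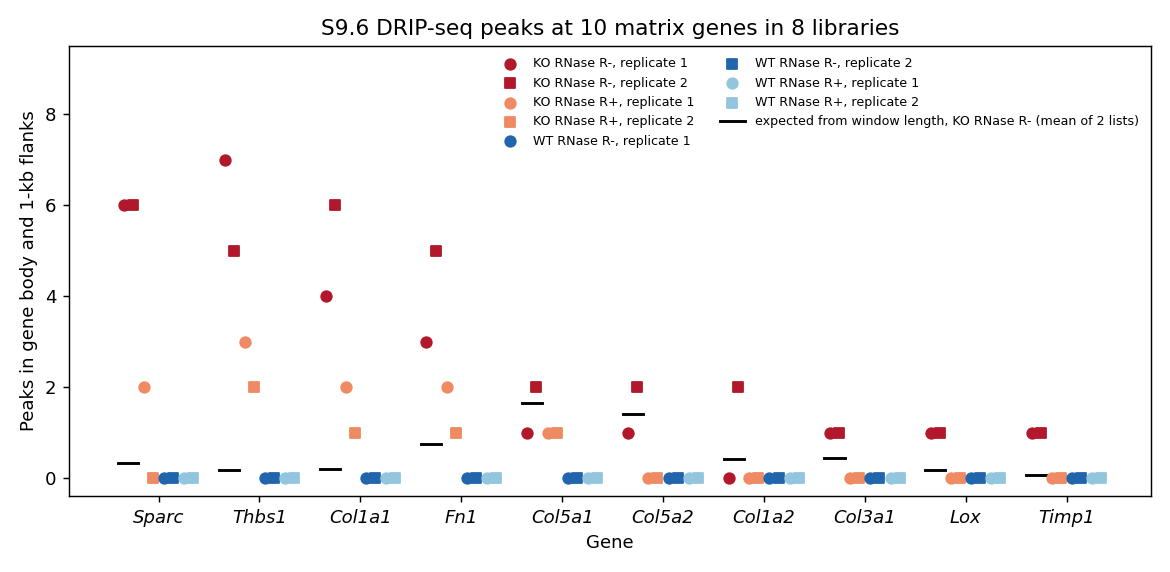
Number of S9.6 DRIP-seq peaks (y axis) in the window of each of the 10 matrix genes (x axis) in each of the 8 libraries, with colour for group and shape for replicate. Black lines mark the number expected from window length in the KO RNase R- lists. Sparc and Thbs1 carried 5 to 7 peaks per KO RNase R- list, while all WT points lie at 0.

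The 0 in WT has to be read against the small size of the WT lists. On the nuclear chromosomes, 26147 and 31954 peaks were in the KO RNase R- lists and 3836 and 2129 in the WT RNase R- lists. With RNase R there were 6301 and 5926 in KO and 260 and 341 in WT. Length alone would therefore place 0.742 and 0.412 peaks at the 10 genes in the WT RNase R- lists, and the share of peaks found there in KO (0.0964%) would place 5.75 in both WT lists together. To give a lower bound, each WT list with a count of 0 was given a floor of 3 peaks, a value chosen here. Before any scaling for depth, the KO RNase R- lists thus had at least 9.33-fold more peaks at these genes than the WT lists. In the windows of all protein-coding genes they had 12.4-fold more. With RNase R the corresponding values were at least 2.5-fold and 24.4-fold. The background level, the fragment coverage that the peak caller took as its floor, was 0.843 to 0.924 fragments per position in the 4 KO libraries and 0.425 to 0.558 in the 4 WT libraries. This difference in background coverage follows genotype and cannot be told apart from it by design. When KO heights and levels were scaled down to the same-numbered WT background, 20 of 25 and 18 of 31 RNase R- peaks at the matrix genes and 6 of 10 and 4 of 5 RNase R+ peaks still reached the weakest p found in the WT list. Over all nuclear peaks 67.7% and 52.3% of RNase R- peaks and 28.5% and 55.4% of RNase R+ peaks did so, beside 80%, 58.1%, 60% and 80% at the matrix genes. By uniquely mapped reads, the WT RNase R- libraries were shallower than the KO ones by a wider margin than by background level, while the WT RNase R+ libraries were near the KO ones or deeper. Scaled by those reads instead, a comparison chosen after seeing the data, 8 of 25 and 9 of 31 RNase R- peaks remained at the matrix genes, and 12.2% and 13.1% over all nuclear peaks. That left 3179 and 4193 nuclear RNase R- peaks in KO, beside 3836 and 2129 in the same-numbered WT lists. At matched reads the KO RNase R- total was therefore below WT in replicate 1 and above it in replicate 2. This order depends on matching the lists by number, and the lists are not known to be pairs. The 17 that remained at the matrix genes lay in Col1a1, Col3a1, Fn1, Sparc and Thbs1. All 10 and 5 RNase R+ peaks at the matrix genes remained under the same scaling. Over the nuclear chromosomes 5046 and 5632 RNase R+ peaks remained in KO, beside 260 and 341 in WT. No RNase R- peak of Col1a2, Col5a1, Col5a2, Lox or Timp1 remained under read scaling. At these 5 genes neither genotype thus had a called RNase R- peak at matched reads. Weaker signal below the threshold is not seen. In RNase R+, Col5a1 kept 1 peak in each KO list, against 0 in WT.

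**Figure D2:**
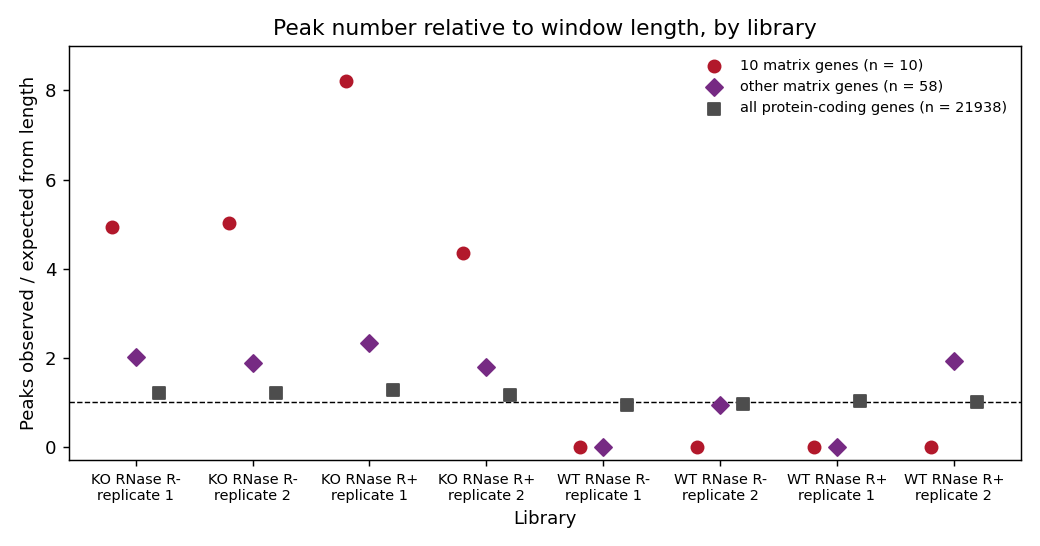
Ratio of observed peaks to peaks expected from window length (y axis) in each library (x axis) for the 10 matrix genes, 58 other matrix genes and all 21938 protein-coding genes; the dashed line marks a ratio of 1. The 10 matrix genes lie between 4.36 and 8.20 in the 4 KO libraries and at 0 in the 4 WT libraries.

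At 4 of the genes, 5 regions were called in all 4 KO lists, and the sequences of 4 of them, in Col1a1, Fn1 and Thbs1, are shown because they are among the most reproducible R-loop sites at these genes. Each is the stretch shared by the highest peak of the 4 lists, limited to its central 300 bases where longer, read 5′ to 3′ on the coding strand of GRCm38, with every run of 3 or more G in capitals. The region in the intron nearest the start of Col1a1 (chr11:94936569-94936868, plus strand) held 7 such runs, and its GC skew, the excess of G over C divided by their sum, was 0.28.
Col1a1 intron: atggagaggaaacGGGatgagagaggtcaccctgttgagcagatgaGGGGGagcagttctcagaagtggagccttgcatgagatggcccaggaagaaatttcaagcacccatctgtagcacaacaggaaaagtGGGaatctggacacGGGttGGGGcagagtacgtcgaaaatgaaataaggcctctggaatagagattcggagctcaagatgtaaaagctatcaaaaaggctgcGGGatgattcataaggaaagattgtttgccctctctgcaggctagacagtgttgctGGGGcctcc
The region within Fn1 (chr1:71643383-71643659, minus strand) held 11 runs of G, and its skew was 0.390.
Fn1 intron: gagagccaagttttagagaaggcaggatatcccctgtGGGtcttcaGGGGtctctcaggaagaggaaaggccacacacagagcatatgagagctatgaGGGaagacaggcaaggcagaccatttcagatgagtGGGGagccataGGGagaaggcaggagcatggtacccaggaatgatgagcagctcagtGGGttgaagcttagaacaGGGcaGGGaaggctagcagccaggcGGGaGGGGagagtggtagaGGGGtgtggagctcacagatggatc
The regions within Thbs1 (chr2:118116822-118117121 and chr2:118120843-118121142, plus strand) held 6 and 5 runs of G but had skews near 0, namely 0.0732 and 0.0323. The latter covers 179 bases of exon and 121 bases outside exons.
Thbs1 intron: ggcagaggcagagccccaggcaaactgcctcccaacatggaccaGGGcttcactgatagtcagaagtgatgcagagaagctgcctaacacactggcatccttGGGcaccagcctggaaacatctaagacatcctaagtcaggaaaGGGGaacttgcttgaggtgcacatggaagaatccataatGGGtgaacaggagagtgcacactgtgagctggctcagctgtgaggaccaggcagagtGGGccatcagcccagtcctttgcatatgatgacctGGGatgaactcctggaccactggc
Thbs1 exon and intron: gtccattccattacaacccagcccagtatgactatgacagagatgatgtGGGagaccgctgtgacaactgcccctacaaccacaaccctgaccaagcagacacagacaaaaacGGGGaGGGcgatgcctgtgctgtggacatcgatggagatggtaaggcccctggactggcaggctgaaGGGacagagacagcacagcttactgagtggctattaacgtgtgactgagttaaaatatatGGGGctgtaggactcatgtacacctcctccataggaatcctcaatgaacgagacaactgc

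The KO peaks at the matrix genes were richer in GC, and more skewed toward G on the coding strand, than KO peaks at protein-coding genes in general. Within 100 bp of the summit, the base of highest coverage in a peak, the median GC content was 51.2% and 50.7% in the KO RNase R- lists and 51.5% and 52.2% in the KO RNase R+ lists. Over all protein-coding windows the medians were 45.3% in both RNase R- lists and 48.8% and 47.3% in the RNase R+ lists. GC skew was above 0 at 20 of 25 and 23 of 31 RNase R- summits and at 9 of 10 and 5 of 5 RNase R+ summits, where 58.2%, 57.0%, 61.6% and 56.9% of the summits in protein-coding windows were above 0. The median skews differed less, at 0.140 and 0.147 in the RNase R- lists against 0.113 and 0.0909. In the RNase R+ lists they were 0.277 and 0.304 against 0.210 and 0.159. The median number of G runs in the 201 bp around a summit was 4 in both RNase R- lists, against 2. The single regions of Lox and Col3a1 went the other way, with median skews of -0.804 and -0.296. In GC content the peaks of Lox, Timp1 and Col1a2 lay below the protein-coding median of 45.3%, with medians of 32.8%, 37.3% and 41.0%. Against the GC content of their own window, RNase R- peaks were higher at 10 of 12 in Thbs1, 8 of 12 in Sparc and 7 of 8 in Fn1. They were also higher at all peaks of Col3a1 and Col5a2 and at 1 of 2 in Col1a2. Only 4 of 10 were higher in Col1a1, whose window had 53.7% GC, and 0 in Col5a1, Lox and Timp1. Many of these summits belong to the same regions in different lists, so these shares are descriptions and were given no test.

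Type I collagen, the main fibril-forming collagen, is a trimer of the products of Col1a1 and Col1a2, and its 2 genes differed in peak number. Col1a1 (ENSMUSG00000001506.10, chr11:94936224-94953042, plus strand) had 4 and 6 peaks in the KO RNase R- lists and 2 and 1 in the KO RNase R+ lists, where its 18.8 kb window would hold 0.183 and 0.224 in the former. All 4 KO lists thus lay above the 4 WT lists at Col1a1, and the observed number was 24.5 times that expected in RNase R- and 34.9 times in RNase R+. Col1a2 (ENSMUSG00000029661.16, chr6:4504814-4541544, plus strand), with a window of 38.7 kb, had 0 and 2 RNase R- peaks and none after RNase R. Its only 2 peaks lay in introns of KO RNase R- replicate 2, with fold enrichments of 6.27 and 6.79, so KO and WT libraries overlapped at this gene. Fold enrichment is the height of a peak over the coverage expected there, as the caller gave it.

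The peaks of Col1a1 were tallest near its start. Its region at 0.406 kb from the gene start (chr11:94936473-94937032), in an intron, had fold enrichments of 16.8 and 15.4 in the KO RNase R- lists and 7.80 and 9.52 in the KO RNase R+ lists. A second region at 3.21 kb, with its summit in an exon, had 11.1 and 10.8 in RNase R- and 8.56 in RNase R+ replicate 1. A further region at 26.8% of the gene length was called in both RNase R- lists (8.07 and 7.74), and the 4 regions farther along the gene were each called in a single list at folds of 3.81 to 7.80. The sites shared by libraries were therefore all within 26.8% of the gene from its start, as the gene maps show.

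The other collagen genes, which encode the chain of type III collagen and 2 chains of type V collagen, a regulator of fibril diameter, carried at most 2 peaks in any list. Col3a1 (ENSMUSG00000026043.18, chr1:45311538-45349706, plus strand) had 1 peak in each KO RNase R- list, in the same intronic region at 47.8% of the gene (chr1:45329533-45329986, folds 4.06 and 9.75), which was 2.32 times the number expected. Col5a1 (ENSMUSG00000026837.15, chr2:27886425-28039514, plus strand), the longest of the 10 genes, had 1 and 2 peaks in RNase R- and 1 and 1 in RNase R+, which was 0.906 and 2.87 times the number expected. Its intronic region at 55.4% of the gene recurred in all 4 KO lists, with folds of 8.13 and 8.00 in RNase R- and 8.32 and 5.51 in RNase R+. Col5a2 (ENSMUSG00000026042.16, chr1:45374321-45503282, minus strand) had 1 and 2 RNase R- peaks, 1.07 times the number expected, in 3 separate intronic regions, none of them shared by the replicates. In the type V collagen genes, then, the number of RNase R- peaks was about what length alone gives, and this region of Col5a1 was the exception in recurrence.

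Thbs1 encodes thrombospondin 1, a matricellular glycoprotein that binds cell surface receptors and can activate latent TGF-β. Thbs1 (ENSMUSG00000040152.8, chr2:118111876-118127133, plus strand) had 7 and 5 peaks in the KO RNase R- lists and 3 and 2 in the KO RNase R+ lists, 32.1 and 63.3 times the number expected from its 17.3 kb window. It was the most densely marked of the 10 genes. With 12 peaks over both KO RNase R- lists it ranked 191 among 21938 protein-coding genes, and of the 10182 genes with a window no longer than its own, 3 had as many, Thbs1 included. The peaks ran along the whole gene, in 7 regions from 9.40% to 89.1% of its length. The region near its middle (chr2:118120781-118121622) was the tallest at any of the 10 genes, with folds of 31.5 and 26.9 in RNase R- and 17.7 and 8.72 in RNase R+, from summit heights of 57, 50, 33 and 22 fragments. The region at 33.3% (chr2:118116723-118117153) had folds of 14.1 and 14.2 in RNase R- and 9.88 and 10.1 in RNase R+. At both regions each RNase R+ value lay below both RNase R- values. A region in the last exon of the gene (chr2:118125371-118125779) had 9.22 and 8.44 in RNase R- and 8.84 in RNase R+ replicate 1, so at this site the RNase R+ value fell between those of RNase R-.

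Sparc encodes osteonectin, a glycoprotein that binds collagen and calcium. Sparc (ENSMUSG00000018593.13, chr11:55394500-55423183, minus strand) had 6 peaks in each KO RNase R- list, 18.2 times the number expected from its 30.7 kb window, and 2 and 0 peaks in the KO RNase R+ lists. It tied with Thbs1 at 12 peaks over both RNase R- lists, and 11 of the 14002 genes with a window no longer than its own had as many, Sparc included. Its 2 highest regions lay in introns at 49.3% (chr11:55408639-55409301, folds 10.2 and 15.3) and 76.3% (chr11:55401141-55401466, folds 10.1 and 14.6) of the gene. Both were also called in RNase R+ replicate 1, each at a fold of 7.80, and neither in replicate 2, so the RNase R+ libraries disagreed at this gene. Sparc was also the only one of the 10 genes with a region in its upstream flank, at 380 bp before the gene start, with low folds of 4.15 and 3.72.

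Fn1 encodes fibronectin, the glycoprotein on which many other matrix proteins assemble. Fn1 (ENSMUSG00000026193.15, chr1:71585520-71653200, minus strand) had 3 and 5 peaks in the KO RNase R- lists and 2 and 1 in the KO RNase R+ lists, 5.36 and 9.55 times the number expected from its 69.7 kb window. Its highest region at 9.69 kb, or 14.3% of the gene (chr1:71643383-71644797), had folds of 12.5 and 11.6 in RNase R- and 16.1 and 11.1 in RNase R+. The value in RNase R+ replicate 1 lay above both RNase R- values at this site, unlike at the tallest sites of Thbs1 and Col1a1. An exonic region at 5.91% (chr1:71649054-71649332) was called in replicate 1 of both treatments (13.0 without and 9.38 with RNase R) and in neither replicate 2. It was the only region of the 10 genes with an RNase R+ peak that was not in both KO RNase R- lists.

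**Figure D3:**
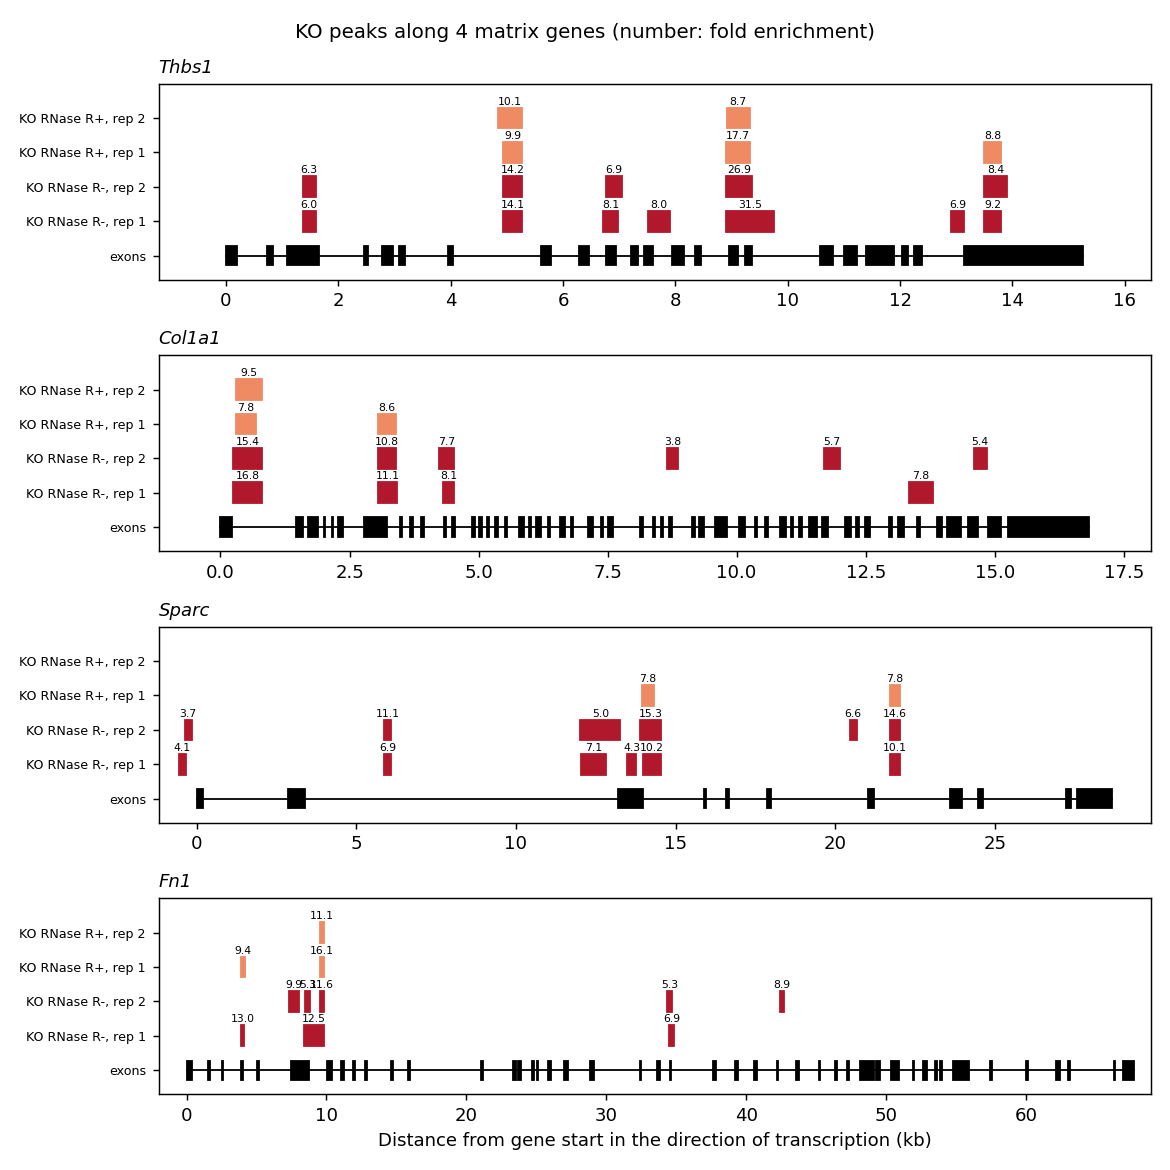
Peaks (coloured boxes, to scale) of the 4 KO libraries along Thbs1, Col1a1, Sparc and Fn1, by distance in kb from the gene start in the direction of transcription (x axis), above the merged exons (black); the number over a box is its fold enrichment. Peaks ran along the whole of Thbs1, while those shared by libraries in Col1a1 lay near its start.

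Lox, the lysyl oxidase that crosslinks collagen and elastin, and Timp1, an inhibitor of matrix metalloproteinases, each had 1 peak in each KO RNase R- list and none in the KO RNase R+ lists. In Lox (ENSMUSG00000024529.14, chr18:52516067-52529867, minus strand) both peaks lay in the same intronic region at 66.5% of the gene, with folds of 8.14 and 8.72 and heights of 14 and 18 fragments. In Timp1 (ENSMUSG00000001131.11, chrX:20870166-20874735, plus strand) both lay in the downstream flank (chrX:20874850-20875145), with folds of 7.05 and 6.86. Timp1 sits within Syn1, a neuronal gene on the opposite strand, and its region was the only one of the 36 at the matrix genes that overlapped another annotated gene. Peak lists carry no strand, so the peak cannot be assigned to either gene. As these windows are only 15.8 and 6.57 kb long, 2 peaks amounted to 5.83 and 13.7 times the number expected at Lox and Timp1, but 1262 of 9572 and 312 of 3731 genes with windows no longer than theirs had as many.

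Across the 10 genes, Col1a1, Sparc, Thbs1 and Fn1 held 42 of the 56 KO RNase R- peaks and the 6 others 14. Without Sparc and Thbs1, left out after their values were seen, the mean over the KO RNase R- lists was 16 peaks and 3.14 times the number expected. With peaks of a −log10 q of at least 10 alone, the mean over all 10 genes was 16.5, and 7.68 times the number expected. More peaks in both KO lists than in both WT lists were found at 9 of the 10 genes in RNase R-, all but Col1a2, where 24.2% of all protein-coding genes met this rule. With KO scaled to the uniquely mapped reads of WT the rule was met at 4 of the 10, namely Col1a1, Fn1, Sparc and Thbs1, and with KO scaled to the WT background level, or with a −log10 q of at least 10, at 6. In RNase R+ 4 of the 10 met it (Col1a1, Col5a1, Fn1 and Thbs1), against 5.64% of all protein-coding genes. Sparc missed it there because its RNase R+ replicate 2 held no peak. Neither the 24.2% nor the 5.64% was matched for window length. The genotype effect over both treatments was tested for each gene with a two-sided exact permutation test, with labels permuted within treatment (36 arrangements), and adjusted by the Benjamini-Hochberg method over the 10037 protein-coding genes with a peak in any list. Col1a1, Col5a1, Fn1 and Thbs1 reached the smallest p this exact test can give, 0.0556, as did 1040 genes in all (adjusted p = 0.536). For Sparc the exact p was 0.167, for Col3a1, Col5a2, Lox and Timp1 0.333 (adjusted p = 0.604 for these 5), and for Col1a2 it was 1. As this exact test cannot go below 0.0556, the size of the difference at each gene stands without a call.

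RNase R was used to ask which peaks remain without linear RNA, and peaks at the matrix genes were fewer after it. In KO the RNase R+ lists held 40% and 16.1% as many peaks at the 10 genes as the same-numbered RNase R- lists, and 25.2% and 17.97% over all protein-coding windows. Both RNase R- lists exceeded both RNase R+ lists at 8 of the 10 genes, all but Col1a2 and Col5a1, against 19.7% of all protein-coding genes, not matched for window length. At 2 libraries against 2 the smallest p of an exact permutation test is 0.33, so the difference is given as counts with no call. With lists matched by number, the share of peaks that remained differed more between replicates than it did between the matrix genes and all protein-coding genes. The lists are not known to be pairs, so the share of a single replicate depends on that matching. Over both lists together it was 26.8% at the matrix genes and 21.3% over all protein-coding windows.

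The peaks that remained after RNase R at the matrix genes all lay at sites also called without it. Merged over the lists, the 71 peaks made 36 regions, each with a KO RNase R- peak. Of these, 19 (52.8%) were called in both RNase R- lists, against 34.4% of the 20050 RNase R- regions in all protein-coding windows. An RNase R+ peak lay in 10 of the 36 (27.8%, against 15.1%), and 9 of these 10 were in both RNase R- lists. No RNase R+ region at the matrix genes lacked an RNase R- peak, while 66.9% of the 4513 RNase R+ regions in protein-coding windows had one. The 5 regions in all 4 KO lists made up 13.9% of the 36, against 4.17% in protein-coding windows. The folds of these peaks stand beside these shares. Their medians were 8.07 and 7.74 in the RNase R- lists and 8.70 and 9.52 in the RNase R+ lists, and 6.76 to 6.94 over all nuclear peaks of the 4 KO lists. The part of peak height in this recurrence was not tested.

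**Figure D4:**
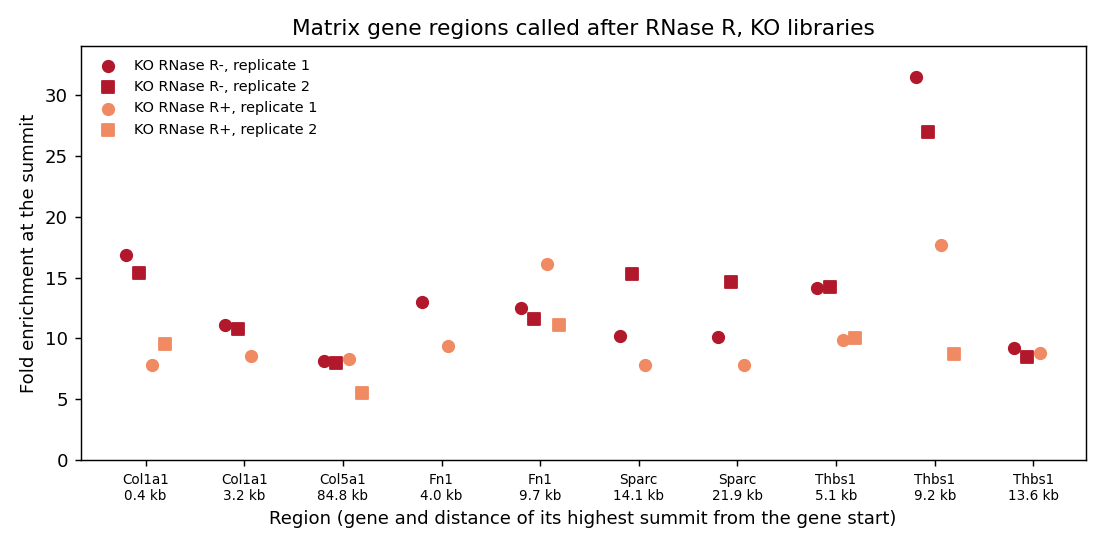
Fold enrichment at the summit (y axis) in the 4 KO libraries for the 10 matrix gene regions with an RNase R+ peak (x axis, gene and distance of the highest summit from the gene start); a missing point means that no peak was called there. The region of Thbs1 at 9.2 kb had folds of 31.5 and 26.9 without and 17.7 and 8.72 with RNase R.

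At the shared regions the enrichment was mostly lower with RNase R than without. Of the 10 regions called in replicate 1 of both treatments, 2 had the higher fold in RNase R+, and the medians were 11.8 without and 8.70 with RNase R. Of the 5 regions called in replicate 2 of both, none had the higher fold in RNase R+, with medians of 14.2 and 9.52. The 2 exceptions were the recurrent region of Col5a1 (8.13 without and 8.32 with RNase R) and the highest region of Fn1 (12.5 and 16.1). Fold values were set by each library's own background and were not scaled between libraries.

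The regions were spread along the genes rather than gathered at their starts. The summit with the highest fold lay in an intron in 25 of the 36 regions, in an exon in 9, and in a flank in 2. Exons make up 14.1% of the windows. In 5 equal parts of the gene body from start to end, the regions numbered 8, 4, 11, 6 and 5, with the 2 others outside. Of the 36 summits, 6 lay within 1000 bp of an annotated transcript start, a distance that covers 13.0% of the windows.

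**Figure D5:**
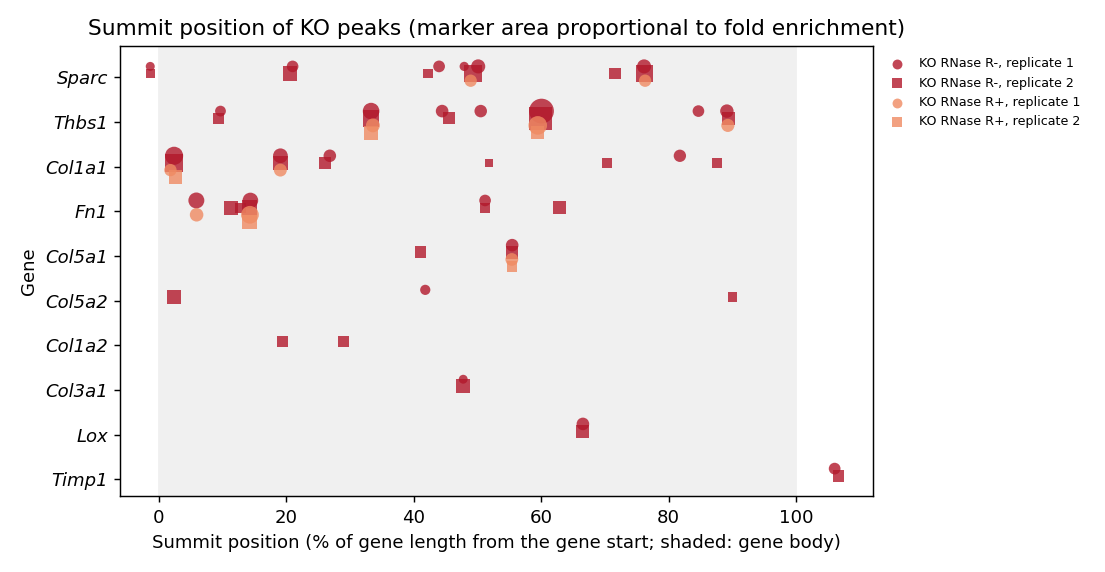
Position of each KO summit as a percentage of gene length from the gene start (x axis) for the 10 matrix genes (y axis), with colour for group, shape for replicate and marker area proportional to fold enrichment. Summits are found from the start to the end of the gene bodies (shaded), with 1 region before the start of Sparc and 1 beyond the end of Timp1.

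The edges of the peaks followed the enzyme cuts. A peak start lay within 5 bp of a recognition site of MseI (TTAA), DdeI (CTNAG), AluI (AGCT) or MboI (GATC) for 19 of 25 and 19 of 31 RNase R- peaks and for 8 of 10 and 5 of 5 RNase R+ peaks. Only 18.3% of the positions in these windows are that close to a site, and over all protein-coding windows 75.3% and 76.3% of KO RNase R- peak starts were. The restriction fragment that holds the summit had a median length of 152 and 177 bp in the RNase R- lists, beside 230 and 234 bp over all protein-coding windows, and 95 bp over all positions of the matrix gene windows. The position of an R-loop is thus resolved here no finer than to restriction fragments. A peak can also span several of them. The stretches shared by the 4 KO lists at the printed regions held 4 cut sites in Col1a1, 8 in Fn1 and 9 and 6 in Thbs1.

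A wider set of 58 other matrix genes gave the same order of groups at a smaller size. These genes of collagens, glycoproteins, proteoglycans, crosslinking enzymes and proteases had 79 and 91 peaks in the KO RNase R- lists, 22 and 16 in the KO RNase R+ lists, 0 and 3 in the WT RNase R- lists and 0 and 1 in the WT RNase R+ lists. Their ratio of observed to expected peaks was 2.01 and 1.90 in KO RNase R-, between that of the 10 genes and that of all protein-coding genes. Both KO RNase R- lists exceeded both WT lists at 24 of the 58 genes, beside the 24.2% of all protein-coding genes, and 9 of the 58 met the rule in RNase R+, beside 5.64%. The median window was 51.6 kb for the 58 genes and 19.4 kb for all protein-coding genes, so these shares are not matched for length. The median gene of the 58 had 1.36 times the number of RNase R- peaks expected from its length, the median of the 10 genes was 5.59, and that of all protein-coding genes was 0. No KO RNase R- peak was called in either list at 14 of the 58, and a region in both lists at 24. The genes with most such regions are named here. Timp2, a relative of Timp1, and Hspg2, the gene of the basement membrane proteoglycan perlecan, each had 5 regions in both KO RNase R- lists. Timp2 had 5 and 6 peaks without and 1 and 1 with RNase R, while Hspg2 had 6 and 7 without and none with it. Col6a3, a type VI collagen chain, Thbs2, the relative of Thbs1, and Fbln2, a fibulin, each had 4 such regions, with ratios of 5.84, 13.6 and 8.27. Ltbp1, Efemp2 and Col18a1 had 3 each, with ratios of 1.21, 25.9 and 2.81. Adamts1 and Serpinh1, the latter the collagen chaperone HSP47, followed with 2 each. Efemp2, a small gene of a fibulin needed for elastic fibres, thus reached a density like that of Col1a1, whereas the long Ltbp1 stayed near the number expected from length.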

How the data were processed

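Peak lists of 8 S9.6 immunoprecipitates (2 per group, groups from the sample titles) were analysed; the 8 inputs were not used here. The authors trimmed reads with cutadapt and aligned them to GRCm38 with Bowtie2. They removed duplicates, reads above a mismatch limit and non-uniquely mapped reads with SAMtools 1.1. MACS2 peak calling was run per replicate at q 0.001, and the control library is not given in the sources used here. Unique mapping removes copies of repeats, and calling per library makes peak numbers depend on depth. The deposited fold enrichment is the ratio of summit height to expected level, with 1 added to each. The deposited p and q values are −log10 values. The deposited score, an integer form of the −log10 q, was not used.

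Gene windows (1000 bp flanks, overlap of at least 1 bp) came from GENCODE M21. The expected number was window length plus mean peak width, times the density of the list over 2725.52 Mb of assembled nuclear chromosomes. Heights and levels were recovered as whole numbers from fold and p under a Poisson distribution, for 93.0% to 99.9% of each list, and tested on simulated data; the lists give no total of reads, so depth was taken from the background level and, in an added comparison, from the uniquely mapped reads stated by the authors per library. Python 3.11.15, numpy 2.4.6, pandas 2.3.3 and scipy 1.17.1 were used. The 10 genes, the other matrix genes (60 symbols, of which 58 matched) and the tests were chosen with earlier results of these data known. All 10 genes are named; of the others, at most 10 with a region in both KO RNase R- lists, ordered by the number of such regions and then by the highest fold. The sequence of the recurrent Col5a1 region is not reported here. Alternatives covered flanks, thresholds, background scaling, expectation, merging and replicates.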

Additional observations from a re-analysis of the deposited data

How the results depend on the processing

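No alternative reversed a direction. WT had no peak at the matrix genes. Stricter thresholds, left-out lists and scaling of KO could therefore not have put KO below WT. The mean of 28 peaks at the matrix genes in KO RNase R- became 16.5 with a −log10 q of at least 10 and 19 with KO scaled to the WT background. Scaled by uniquely mapped reads, chosen after seeing the data, it was 8.5, and the number of genes above WT was 4. The ratio to expectation of 4.99 over both lists became 4.81 without flanks, 4.41 with 5000 bp flanks, 7.68 at the stricter q, 4.24 from the density of protein-coding windows, 4.25 for merged regions and 6.95 for regions of both replicates. The RNase R difference of -20.5 peaks became -11 at the stricter q. In a comparison chosen after seeing the data, without Sparc and Thbs1, the mean became 16, the ratio 3.14 and the difference -12, so these 2 genes carry much of the excess.

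Leaving out 1 replicate at a time gave 25 to 31 peaks in RNase R-, 5 to 10 in RNase R+, 9 to 10 genes above WT (8 without flanks or at a fold of at least 5, 6 at the stricter q or with background scaling), ratios of 4.95 to 5.02 and RNase R differences of -26 to -15. A replicate block gave the same means (28, 7.5, 9 genes and -20.5), which it cannot change in this balanced layout. Same-numbered libraries did not deviate together (correlations over 10037 genes of -0.0825 to 0.0204). With low peak counts per gene, these correlations cannot settle whether same-numbered samples shared a culture or a preparation.

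Peak lists carry no coverage below the threshold, so weaker signal at a gene without a peak is not seen here, and with 2 libraries per group no gene can pass the exact permutation test. Background coverage was lower in WT than in KO in both treatments. By uniquely mapped reads WT was much shallower in RNase R- alone. Scaling assumes that height grows with depth.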
